A study of Mus musculus with 64 samples.

Results

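The comparison set every mouse that carries the Q140 allele against every mouse that does not, in cerebral cortex. Its members were the 32 cortex libraries of the 64 in the series, chosen by the tissue and genotype labels: 16 carriers (8 labelled Q140 and 8 labelled Q140 Polq+/-) and 16 non-carriers (8 labelled WT and 8 labelled Polq+/-). Each genotype had 4 females and 4 males on the C57BL/6 background, aged 6 months, and each library came from 1 mouse, so replicates are separate animals. In the Q140 allele an expanded run of CAG repeats has been knocked into Htt, the huntingtin gene of the mouse, and both carrier groups are heterozygous for it, per the labels. Polq+/- mice lack 1 copy of the gene of DNA polymerase theta, an enzyme that joins broken DNA ends. Striatum of the same 32 mice was also sequenced and is used here only for the difference between tissues.

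Huntingtin is a large scaffold protein found in most cells, and its expanded form causes Huntington's disease. Spiny projection neurons in the striatum are especially vulnerable, and their main excitatory input comes from pyramidal neurons of the cortex, which also carry the expanded protein. In a knock-in mouse the protein is made from the gene's own promoter in every cell that uses it. In bulk tissue, fewer cells of a type and less RNA per cell cannot be told apart.

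The libraries held 30.9 to 40.1 M gene counts (median 34.8 M in carriers and 34.3 M in non-carriers). Cortical identity was checked on FPKM, a level per gene length: Slc17a7, the glutamate transporter of cortical excitatory neurons, lay at 220.2 to 258 FPKM in cortex and 0.307 to 4.26 in striatum. The dopamine receptor gene Drd2, a spiny neuron marker, lay at 0.184 to 0.472 FPKM in cortex and 103 to 176 in striatum. Polq, the target of the other allele, had a median of 2.43 CPM in WT (1.82 to 3.33), 2.29 CPM in Q140 (1.96 to 2.98), 1.27 CPM in Polq+/- (0.602 to 1.38) and 1.21 CPM in Q140 Polq+/- (0.375 to 1.93), where CPM are counts scaled to library size. Of the 16 mice labelled with the Polq deletion, 4 lay at 0.375 to 0.602 CPM, under the 1.12 to 1.93 of the other 12. Gene counts do not separate the 2 Htt alleles, so Htt gives the Q140 labels no direct check.

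A pair of libraries stood apart in several genes, and the main counts are given with and without them. Polq+/- female 4, a non-carrier, had Abhd1 at 6.10 CPM, within the 5.51 to 7.13 of the 16 carriers and above the 1.86 to 3.48 of the other 15 non-carriers. Its striatal library placed Abhd1 on the same side (7.39 CPM, against 6.41 to 9.09 in carriers and 3.40 to 5.38 in other non-carriers), and Atraid too (36.3 CPM, against 33.1 to 37.3 and 42.3 to 51.7). In cortex this mouse also lay beyond the other 15 non-carriers, toward the carriers, in Cgref1 (9.71 CPM, the others at most 9.34). So it did in Atraid (33.7 CPM, the others at least 34.2), Slc5a6 (24.8 CPM, at most 22.6) and Zfp513 (22.0 CPM, at most 21.9). In Mrpl33 it lay within the other non-carriers (11.7 CPM, against 10.8 to 13.8). All of these genes are within 10 Mb of Htt on chromosome 5. The same mouse was like the other non-carriers in the pseudogene Gm2420 (0 counts in both tissues, against 7 to 27 in cortical and 21 to 55 in striatal libraries of carriers). In striatum it was also like them in Sfmbt2 (2.37 CPM, against 7.89 to 12.6 in carriers and 1.35 to 3.40 in other non-carriers) and Ddit4l (44.3 CPM, against 7.47 to 10.4 and 34.1 to 48.1). Q140 Polq+/- male 1, a carrier, had cortical Nptx2 at 57.6 CPM, against 30.6 to 49.5 in the other 15 carriers and 43.5 to 67.7 in non-carriers. Its striatal library was also above the other carriers in Nptx2 (46.4 CPM, against 24.4 to 43.0) and in Plekhg4 (9.70 CPM, against 3.75 to 7.83, with non-carriers at 8.69 to 18.2), and within them in Sfmbt2 (9.48 CPM, against 7.89 to 12.6). Its 7 cortical counts of Gm2420 lay between those of the other carriers (12 to 27) and the non-carriers (0 to 4). In striatum it had 55 counts of Gm2420, above the other carriers (21 to 44) and the non-carriers (0 to 3). Its striatal Ddit4l, at 7.47 CPM, was below the other carriers (8.12 to 10.4) and the non-carriers (34.1 to 48.1). Striatal Car12 (61.0 CPM, against 40.3 to 63.7) and Fndc9 (12.4 CPM, against 4.68 to 12.6) lay within the other carriers. What set these libraries apart was not tested.

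The groups were also spread unevenly over the plate: column 8 held 7 carriers and 1 non-carrier, column 7 held 4 of each, column 6 held 2 carriers and 6 non-carriers, and column 5 held 3 carriers and 5 non-carriers. The well address is all that the labels say of it. Of 89 named or list genes called, 34 lost their call in a fit with the plate column as a term, so calls below do not all hold in that fit.

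The comparison asked what 1 expanded Htt allele changes in cortical RNA when mice of both Polq labels are pooled. Changes were small, and among edgeR's calls falls in highly expressed genes were the more frequent. With sex and the Polq label as covariates, 463 of 18116 genes tested passed an adjusted p under 0.05 (2.56%), 162 higher (0.894%) and 301 lower (1.66%) in carriers, with 2617 at an unadjusted p under 0.05. The median size of a called change was 0.12 on the log2 scale, or 1.09-fold, and 6 calls were past 2-fold. Genes called lower had a median level of 106 CPM and genes called higher 22.4 CPM, against 14.6 CPM for all genes tested. The split of higher and lower calls was reversed on the deposited FPKM: with a pseudocount of 0.1, limma called 507 genes, 318 higher and 189 lower. That fit changed the scaling, the transform and the test at once. With the scaling alone changed, to DESeq2's size factors in edgeR, 459 genes were called, 158 higher and 301 lower. Those size factors are not the library totals by which FPKM was scaled. EdgeR was not run with such totals, so that fit cannot tell what the scaling of FPKM did. What reversed the split was not tested. With the plate column as a term 268 genes were called, 91 higher and 177 lower. Without the 4 mice of lowest Polq 273 were called, 91 higher and 182 lower. Without Polq+/- female 4 edgeR called 530 genes and without Q140 Polq+/- male 1 it called 605. Without Q140 male 1 it called 333, 107 higher and 226 lower. Ranges of the 16 carriers and 16 non-carriers did not overlap in 1 gene, Gm2420 (0.00552% of genes tested).

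Genes of calcium signalling included the lower call of smallest p-value, Camk2n1. Calcium that enters an active neuron switches on the CaM kinases, which adjust synapses and transcription. Of 30 tested members of the list of CaM kinases and calcium signalling, 6 fell and 0 rose, with a median log2 fold change of -0.03 against 0.0023 over all genes tested. Beside the counts of this and later lists stand the 1.66% of all genes tested called lower and the 0.894% called higher. Genes called lower were abundant (median 106 CPM, against 14.6 CPM for all genes tested). The part of expression level in the list counts was not tested. Summed over the list, levels were 22299 to 23672 CPM in carriers and 23566 to 25182 CPM in non-carriers.

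Camk2n1, an inhibitor protein of CaM kinase II (plus strand of chromosome 4, 138454314 to 138460123 on GRCm38), lay at 2645, 2926 and 3269 CPM in non-carriers and 2189, 2424 and 2674 CPM in carriers (lowest, median and highest mouse, as in all sets of levels that follow). Signed values after a gene are its log2 fold change, carriers against non-carriers. The groups met only at their edges, and all 16 carriers were below the non-carrier median. The log2 fold change was -0.26 (SE 0.0274, adjusted p = 2.97e-07), and within plate columns 5, 6 and 7 the differences were -0.28, -0.22 and -0.21. Camkk2, the kinase that activates other CaM kinases, lay at 465, 496 and 537 CPM in non-carriers and 425, 450.0 and 484 CPM in carriers. Its fall of 0.15 on the log2 scale (SE 0.0183, adjusted p = 1.25e-06) was again seen in 16 of 16 carriers, with overlapping groups. Members that fell also included Atp2b2, a calcium pump of the plasma membrane (-0.14, SE 0.0184, adjusted p = 8.55e-06), Camk2a, the main CaM kinase II subunit of excitatory neurons (-0.12, SE 0.0188, adjusted p = 0.000152), and the nuclear kinase gene Camk4 (-0.11, SE 0.027, adjusted p = 0.0154).

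**Figure D1:**
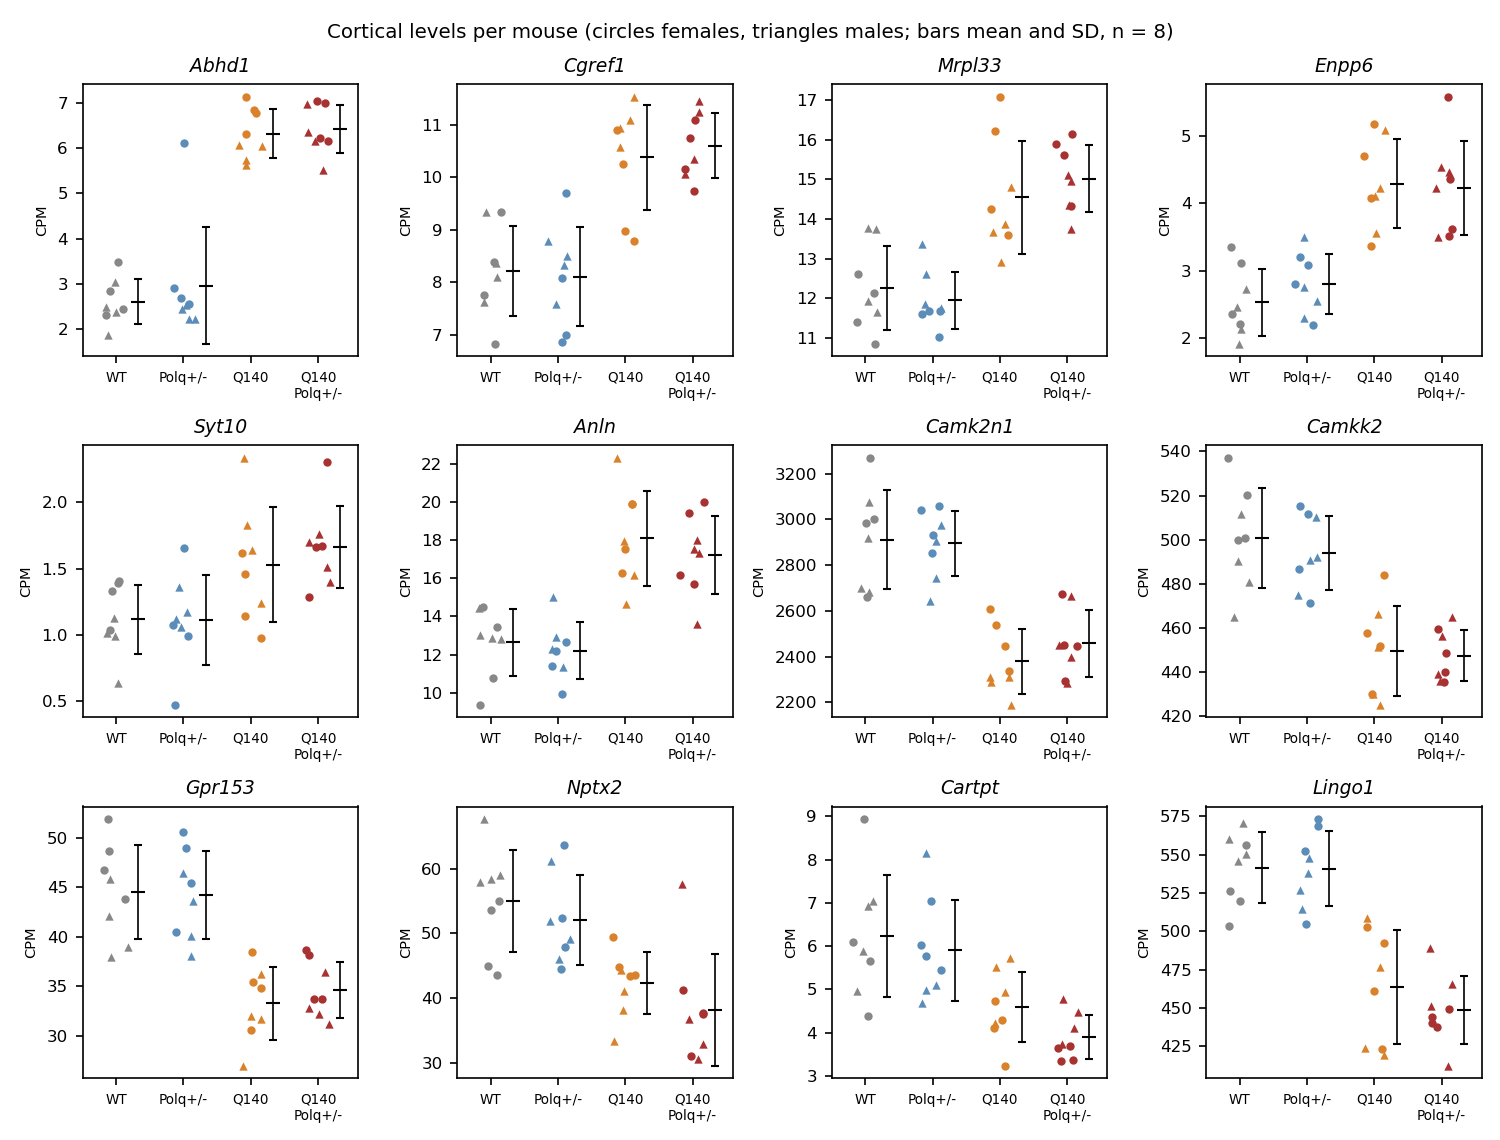
Cortical CPM (y axes, linear and not starting at 0) of 12 named genes in each of the 32 mice, by genotype on the x axes, with circles for females, triangles for males, and the mean and SD of 8 mice beside the points. Abhd1 of 1 Polq+/- female, at 6.10 CPM, sits among the carriers, and Camk2n1 of the 16 carriers sits at 2189 to 2674 CPM against 2645 to 3269 CPM in non-carriers.

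Of 28 tested genes of synaptic vesicle release 6 fell and 0 rose (median -0.03). They included Snap25, a core SNARE protein (-0.10, SE 0.0168, adjusted p = 0.000152), the priming factor Unc13a (-0.10), the Rab3 effector Rph3a (-0.11), the active zone scaffold Rims1 (-0.09) and the vesicle SNARE Vamp1 (-0.12). Snap25 lay at 3167, 3465 and 3640 CPM in non-carriers and 2957, 3221 and 3406 CPM in carriers, with 16 of 16 carriers below the non-carrier median and overlapping groups. With the plate column 5 and without the 4 mice of lowest Polq 3 members of this list fell.

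Ion channels and receptors that set excitability gave single small changes. Voltage-gated potassium channel genes fell in 5 of 36 tested (13.9%, against 1.66% of all genes tested) and rose in 0 (median -0.03). Among those that fell were the channel-interacting protein Kcnip3 (-0.12), Kcns1 (-0.13) and Kcnc1 (-0.06). With the plate column 3 of the list fell. Other potassium channels fell in 3 of 26: Kcnk4 (-0.12), Kcnj9 (-0.07) and the glial channel Kcnj10 (-0.17), of which 1 was called with the plate column. Of 26 tested sodium and calcium channels 2 fell, Cacng3 (-0.08) among them, and 2 rose, Scn3a (0.14) and Scn3b (0.16). None of the list was called with the plate column. Glutamate receptors fell in 2 of 25, the metabotropic receptor Grm4 (-0.16) and the NMDA receptor subunit Grin2a (-0.09). GABA receptors fell in 2 of 14, the extrasynaptic subunit Gabrd (-0.12) and the metabotropic subunit Gabbr2 (-0.08). Grin2a and Gabrd were not called with the plate column.

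Effector genes that neuronal activity induces fell in 4 of 22 tested and rose in 0, with a median log2 fold change of -0.10. Activity first induces transcription factors such as Fos and Egr1, and then secreted and synaptic effectors. None of the 17 tested immediate early transcription factors was called by edgeR or DESeq2, with 2 at an unadjusted p under 0.05 and 1 called by limma voom (median -0.04). Fos had an adjusted p of 0.999, Egr1 was at -0.13 (adjusted p = 0.687) and Egr3 at -0.27 (adjusted p = 0.118). The summed level of these transcription factors was 875 to 1981 CPM in carriers (median 1379.5) and 688 to 1897 CPM in non-carriers (median 1572). For the effector list the medians were 2663 and 3100 CPM. Of the transcription factors 13 of 17 were below 0, and of the effectors 19 of 22. The 4 effectors that fell were Nptx2, Homer1, Nrn1 and Rgs4, and with the plate column 2 fell.

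Nptx2, a secreted pentraxin that clusters AMPA receptors, lay at 43.5, 52.96 and 67.7 CPM in non-carriers and 30.6, 39.7 and 57.6 CPM in carriers. All carriers but Q140 Polq+/- male 1 were below the non-carrier median, and the groups overlapped. Its log2 fold change was -0.41 (SE 0.0782, adjusted p = 0.0029), or -0.46 without that library. Homer1, a scaffold of the postsynaptic density whose short form is induced by activity, lay at 255, 315 and 413 CPM in non-carriers and 175, 254 and 311 CPM in carriers (-0.31, SE 0.0652, adjusted p = 0.00588). The 16 carriers were all below the non-carrier median. Nrn1, the growth-promoting membrane protein neuritin, lay at 200.3, 226 and 241 CPM in non-carriers and 181, 195 and 221 CPM in carriers (-0.18, SE 0.0316, adjusted p = 0.00112). Rgs4, a brake on G protein signalling, lay at 528, 578 and 623 CPM in non-carriers and 495, 519 and 577 CPM in carriers (-0.13, SE 0.0207, adjusted p = 9.28e-05). Both were lower in 16 of 16 carriers, with overlapping groups. With the plate column the adjusted p was 0.0534 for Nptx2 (6.76e-05 to 0.0534 over all alternatives) and 0.0736 for Homer1 (0.000195 to 0.0736). Nrn1 was not called in the fit of all 64 libraries (adjusted p = 0.14). Other listed effectors did not pass, among them Scg2 at -0.16 (adjusted p = 0.059), Vgf at -0.20 (adjusted p = 0.0895), Bdnf at -0.19 (adjusted p = 0.281) and Arc at -0.23 (adjusted p = 0.758).

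Sequence in front of the start site was at hand for 2 of these 4 genes in RefSeq's promoter table (GRCm38.p6) and is shown because CREB, a factor that CaM kinases activate, binds the cAMP response element near many activity-induced genes. The 250 bases before the start are given 5′ to 3′ on the gene's strand, with capitals marking TGACG, the core of that element, or its complement. Rgs4 is on the minus strand at chr1:169747643-169747892 and Homer1 on the plus strand at chr13:93303507-93303756, for the one of its 2 listed starts nearer the annotated start of the gene, from which it lies 4122 bases away.
Rgs4: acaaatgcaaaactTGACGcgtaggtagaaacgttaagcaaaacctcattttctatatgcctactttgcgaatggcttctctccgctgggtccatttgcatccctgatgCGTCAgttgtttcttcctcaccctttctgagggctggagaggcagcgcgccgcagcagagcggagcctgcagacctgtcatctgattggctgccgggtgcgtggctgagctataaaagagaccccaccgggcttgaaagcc
Homer1: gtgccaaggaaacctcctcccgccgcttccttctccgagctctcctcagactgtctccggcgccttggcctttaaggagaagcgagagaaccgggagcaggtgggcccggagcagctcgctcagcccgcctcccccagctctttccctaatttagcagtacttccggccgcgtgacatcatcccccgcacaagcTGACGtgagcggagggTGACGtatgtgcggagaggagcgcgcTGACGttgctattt
The core TGACG, searched on both strands, occurred 2 times before Rgs4 and 3 times before Homer1, and in 17.8% of the 32851 windows of the same length in the table. The full palindrome TGACGTCA, which contains the core, occurred in neither, and in 1.55% of all windows. These matches describe letters only.

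Among calls, larger falls were found in genes of lower level, where the SE tended to be larger and small changes pass less easily. The 12 largest among named genes of at least 1 CPM on average were Car12 (-0.56), Cartpt (-0.52), Fndc9 (-0.44), Fzd10 (-0.43), Nptx2 (-0.41), Plekhg4 (-0.41), Tmem37 (-0.40), Mslnl (-0.40), Plk5 (-0.40), Gpr153 (-0.38), Pla2g5 (-0.38) and Slco2a1 (-0.37). Cartpt, the precursor of the CART neuropeptide, lay at 4.38, 5.83 and 8.94 CPM in non-carriers and 3.23, 4.17 and 5.72 CPM in carriers (SE 0.0887, adjusted p = 0.000546). It was the 1 call among 16 tested neuropeptide precursors by edgeR, where DESeq2 called 4 lower. Gpr153, an orphan G protein-coupled receptor, had the smallest p of the 12 (SE 0.0412, adjusted p = 4.86e-07) and lay at 37.9, 44.6 and 51.9 CPM in non-carriers and 26.9, 33.7 and 38.7 CPM in carriers. The groups of both genes overlapped, with 16 of 16 carriers below the non-carrier median. Plk5, a polo-like kinase of neurons, lay at 23.1, 25.7 and 39.1 CPM in non-carriers and 16.6, 19.8 and 25.7 CPM in carriers (SE 0.0679, adjusted p = 0.000882), with 15 of 16 carriers below the non-carrier median. Car12, a carbonic anhydrase, was below that median in 14 of 16 carriers (SE 0.122, adjusted p = 0.00794), and its log2 fold change was -0.64 without Q140 Polq+/- male 1. With the plate column Car12 (-0.43, adjusted p = 0.0778), Fndc9 (-0.29, adjusted p = 0.22), Nptx2 (-0.33, adjusted p = 0.0534), Plekhg4 (-0.29, adjusted p = 0.254), Tmem37 (-0.39, adjusted p = 0.09), Mslnl (-0.38, adjusted p = 0.0921) and Slco2a1 (-0.37, adjusted p = 0.0501) lost their call.

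Abundant neuronal genes with small steady falls had some of the smallest p-values beside the CaM kinase genes. Lingo1, a membrane protein of the Nogo receptor complex that limits axon growth and myelination, lay at 503, 547 and 573 CPM in non-carriers and 412, 450.1 and 508 CPM in carriers (-0.25, SE 0.0277, adjusted p = 5.9e-07). R3hdm1, whose introns hold the microRNA gene Mir128-1, lay at 538, 619 and 650.5 CPM in non-carriers and 505, 539 and 594 CPM in carriers (-0.17, SE 0.0202, adjusted p = 4.86e-07). Both genes were lower in 16 of 16 carriers, and both ranges overlapped. Among neurotrophin genes and receptors 3 of 10 tested fell (median -0.10): Sort1, the sorting receptor sortilin (-0.08, SE 0.0119, adjusted p = 2.87e-05), and Ret (-0.23) and Gfra2 (-0.16), which form receptors for factors of the GDNF family. Of the list 2 fell with the plate column and 1 without the 4 mice of lowest Polq. Of 48 synaptic organisers and axon guidance genes 3 fell, the semaphorins Sema7a (-0.19, SE 0.0265, adjusted p = 3.87e-05) and Sema4a (-0.12) and the netrin receptor Unc5b (-0.15), and 1 rose, the ephrin Efnb2 (0.13), with Unc5b not called in the plate column fit. Stress genes fell in 2 of 22: Ddit3, which encodes the transcription factor CHOP (-0.17, SE 0.0278, adjusted p = 0.000152), and Ddit4l, which restrains mTOR (-0.35, SE 0.0682, adjusted p = 0.00349).

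Rises were fewer than falls by edgeR, DESeq2 (223 higher, 417 lower) and limma voom on counts (154 higher, 309 lower), though not on FPKM. Among named genes of at least 1 CPM on average Abhd1, annotated as a processed transcript, had the largest and is described with the neighbours of Htt. Enpp6, a choline phosphodiesterase made by newly forming oligodendrocytes (plus strand of chromosome 8, 46986887 to 47096762), lay at 1.91, 2.63 and 3.49 CPM in non-carriers and 3.37, 4.23 and 5.59 CPM in carriers. The ranges overlapped by a narrow margin, all 16 carriers were above the non-carrier median, and the log2 fold change was 0.68 (SE 0.0805, adjusted p = 5.9e-07). Anln, the actin-binding protein anillin, which oligodendrocytes also make, lay at 9.35, 12.7 and 15.0 CPM in non-carriers and 13.6, 17.5 and 22.3 CPM in carriers (0.51, SE 0.0643, adjusted p = 8.55e-06), again higher in 16 of 16. The other rises among the 12 were those of the synaptotagmin Syt10 (0.52), the estrogen receptor Esr1 (0.49), the choline dehydrogenase Chdh (0.44), the growth factor Angpt1 (0.40), Adamtsl1 (0.38), Cgref1 (0.36), the helicase Hfm1 (0.36), the folate enzyme Shmt1 (0.36) and the ceramidase Acer2 (0.34). Syt10, Hfm1 and Shmt1 were not called with the plate column. Chdh overlaps Cacna1d and Shmt1 overlaps Smcr8 on the opposite strand, as Fndc9 among the falls overlaps Cyfip2 and Plekhg4 overlaps Kctd19, and as Mrpl33 near Htt overlaps Rbks. The counting had a strand setting not given in the sources used here.

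Markers of cortical cell types moved little. Pan-excitatory markers fell in 3 of 9 tested (Arpp21 at -0.14, Camk2a at -0.12 and Nrgn at -0.09), while Slc17a7, Neurod2, Neurod6, Sv2b and Tbr1 did not pass. In the plate column fit and on FPKM 2 of the list fell, and with the plate column Nrgn was not called (adjusted p = 0.0553). Their summed level was 8241 to 8848 CPM in carriers and 8695 to 9577 CPM in non-carriers. Upper layer markers fell in 2 of 11, Lamp5 (-0.21, SE 0.038, adjusted p = 0.00131) and Stard8 (-0.19), the second of which was not called with the plate column (adjusted p = 0.118). EdgeR called none of 5 layer 4, 12 layer 5, 11 layer 6 or 17 interneuron markers, of which 2, 0, 2 and 2 had an unadjusted p under 0.05. Signs differed by layer: 9 of 11 upper layer (median -0.04) and 5 of 5 layer 4 markers (median -0.07) were below 0. Of layer 5 markers 5 of 12 were below 0 (median 0.0067), and of layer 6 markers 9 of 11 were above it (median 0.04). The source of this tilt was not tested. DESeq2 called 1 layer 6 marker higher and 1 interneuron marker lower, and limma voom called none.

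Glial lists held a few small changes in both directions. Myelin genes fell in 3 of 16, among them Ugt8a and Fa2h, enzymes of myelin lipid synthesis (-0.19, SE 0.0377, adjusted p = 0.00298, and -0.21, SE 0.0445, adjusted p = 0.00561). Of the list 2 fell in the plate column fit. Their summed level overlapped widely, at 2005 to 2719 CPM in carriers and 2097 to 2911 CPM in non-carriers. Oligodendrocyte precursor markers rose in 1 of 13, Enpp6. Astrocyte markers fell in 3 of 15, the glutamate transporter Slc1a2 (-0.11, SE 0.0177, adjusted p = 0.000249), the amino acid transporter Slc7a10 (-0.12) and the glycolytic enzyme Aldoc (-0.10). With the plate column, without the 4 mice of lowest Polq, or on FPKM, 1 astrocyte marker fell. Microglial markers rose in 2 of 14, among them the lysosomal protease gene Ctss (0.12, SE 0.0271, adjusted p = 0.00891). Their summed level was 414 to 461 CPM in carriers and 395 to 449.9 CPM in non-carriers. EdgeR, DESeq2 and limma voom called none of 11 endothelial, 15 mural and meningeal or 8 reactive astrocyte markers, of which 3, 0 and 1 had an unadjusted p under 0.05.

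Markers of tissue and cells from outside the cortex were read beside these results. Of 15 tested spiny neuron markers 1 rose by edgeR, while 11 were below 0 (median -0.04) and DESeq2 called 2 and limma voom 1 lower. The summed level of the list was 659 to 755 CPM in carriers and 660.0 to 794 CPM in non-carriers. Of 6 cerebellar and olfactory bulb markers 1 rose, Cbln3 (0.63, SE 0.155, adjusted p = 0.0164), at 0.345 to 1.34 CPM in carriers and 0.216 to 0.828 in non-carriers, and it was not called with the plate column. EdgeR, DESeq2 and limma voom called none of 10 thalamic and hippocampal or 6 choroid plexus markers (1 and 0 at an unadjusted p under 0.05). The 6 tested blood markers were all above 0 (median 0.87), with none called by any of the 3 tools and 0 at an unadjusted p under 0.05. Their summed level was 3.94 to 69.8 CPM in carriers and 2.55 to 26.9 CPM in non-carriers. The part of blood or neighbouring tissue in the calls was not tested.

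**Figure D2:**
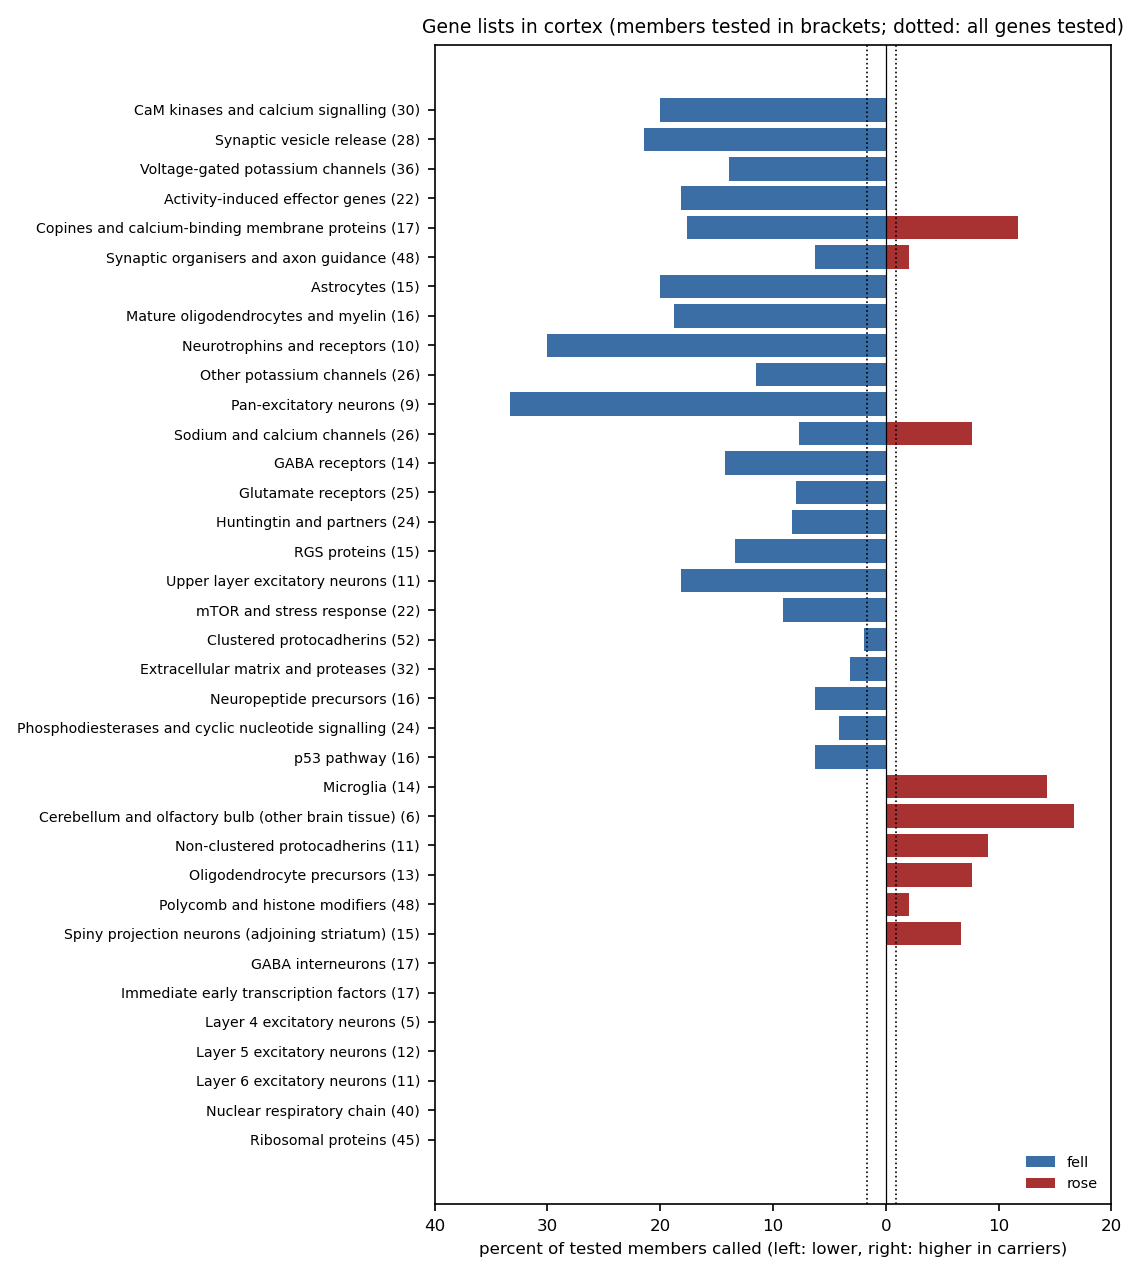
Percent of the tested members (number in brackets) called lower (blue, to the left of 0) or higher (red, to the right) in carriers, for the 29 gene lists with a call and 7 of the 24 without, with dotted lines at 1.66% and 0.894% for all genes tested. Bars of calcium signalling (6 of 30) and synaptic vesicle release (6 of 28) point left only, and that of microglial markers (2 of 14) points right.

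In all, 53 gene lists were read. Of their 1041 tested genes 71 were called, 59 lower and 12 higher, where 2.56% of all genes tested were called, 1.66% lower and 0.894% higher. Falls only were found in 20 lists, rises only in 6 and both in 3, and 24 lists held 0 calls by edgeR. Those 24 lists had 440 tested genes, of which 46 had an unadjusted p under 0.05, 5 were called by DESeq2 and 1 by limma voom. Among them were lists on processes often examined in Huntington's disease: the proteasome (36 tested), chaperones (26), autophagy (24), nuclear genes of the respiratory chain (40), cholesterol synthesis (23), the circadian clock (19), ribosomal proteins (45), the interferon response (22) and antioxidant genes (23). Their medians lay between -0.02 and 0.03. Mismatch repair genes and other modifiers of CAG expansion were above 0 in 17 of 19 tested, with a median of 0.06, a highest value of 0.08 and 0 calls by edgeR (5 at an unadjusted p under 0.05, 1 called by DESeq2). Of all 18116 genes tested 8738 were below 0. Other lists leaned as well: 37 of 45 ribosomal proteins and 17 of 22 interferon response genes were above 0, and 21 of 26 chaperones below it. Genes of double-strand break repair, to which Polq belongs, had 0 calls of 26 by edgeR (4 at an unadjusted p under 0.05, 1 called by DESeq2). Clustered protocadherins, related neuronal surface proteins whose reads can be hard to assign to 1 member, had 1 call of 52, the fall of Pcdhgc5 (-0.10). That is near the 1.66% of all genes called lower.

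Genes near Htt on chromosome 5 were called more often than the rest. Within 10 Mb of Htt 14 of 193 tested genes were called (7.25%), 9 higher and 5 lower, against 2.51% of all other genes tested and 2.42% of the remainder of chromosome 5. Of the 14, 12 lay on the side of lower chromosome positions (130 tested), 1 on the other side (62 tested), and Htt itself was the remaining one. The count was again 14 with the plate column (7.25% against 1.42% of other genes) and 14 without the 4 mice of lowest Polq (7.25% against 1.43%). It was 16 without Polq+/- female 4 (8.29% against 2.86%). The Q140 allele and any linked chromosome segment that came with it cannot be told apart in these groups.

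Gm2420, a transcribed pseudogene (plus strand of chromosome 5, 32720330 to 32736194, 2.04 Mb from Htt), had 7 to 27 counts in each carrier and 0 to 4 in each non-carrier, 284 and 21 counts in all. It was the one gene whose groups did not overlap. Abhd1, of the alpha/beta hydrolase family (plus strand, 30950066 to 30955091, 3.81 Mb from Htt), lay at 1.86, 2.50 and 6.10 CPM in non-carriers and 5.51, 6.27 and 7.13 CPM in carriers. The groups overlapped through Polq+/- female 4 alone. Its log2 fold change was 1.20 (SE 0.0883, adjusted p = 1.11e-11) with all libraries and 1.31 (adjusted p = 3.78e-20) without that one. Within plate columns 5, 6 and 7 the differences were 1.27, 1.47 and 1.11. Preb, which overlaps Abhd1 on the opposite strand, did not pass (-0.02, SE 0.0177, adjusted p = 0.668) at 63.96 ± 1.70 CPM in carriers and 64.9 ± 2.25 CPM in non-carriers (SD, n = 16).

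Next to Abhd1, Cgref1 lay at 6.83, 8.22 and 9.71 CPM in non-carriers and 8.78, 10.7 and 11.5 CPM in carriers (0.36, SE 0.0454, adjusted p = 1.65e-06). Mrpl33, a mitochondrial ribosomal protein gene 3.16 Mb from Htt, lay at 10.8, 11.8 and 13.8 CPM in non-carriers and 12.9, 14.6 and 17.1 CPM in carriers (0.29, SE 0.0388, adjusted p = 8e-06). Both rose in 16 of 16 carriers with overlapping groups. Other neighbours that changed included Atraid (-0.21, SE 0.0289, adjusted p = 1.5e-05), the vitamin transporter Slc5a6 (0.14), the zinc finger gene Zfp513 (0.13), Dpysl5 (0.17), the serotonin receptor Htr5a (0.12), Ppp1cb (-0.08) and Nat8l (-0.07). The pseudogene Gm6089 had 4 to 60 counts per carrier and 2 to 27 per non-carrier (adjusted p = 0.0353). Htt itself was lower, at 223, 230.4 and 250.5 CPM in non-carriers and 194, 218 and 242 CPM in carriers, with 13 of 16 carriers below the non-carrier median (-0.10, SE 0.024, adjusted p = 0.0118). Htt was not called in the fit of all 64 libraries (adjusted p = 0.11; 1.04e-05 to 0.11 over all alternatives).

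**Figure D3:**
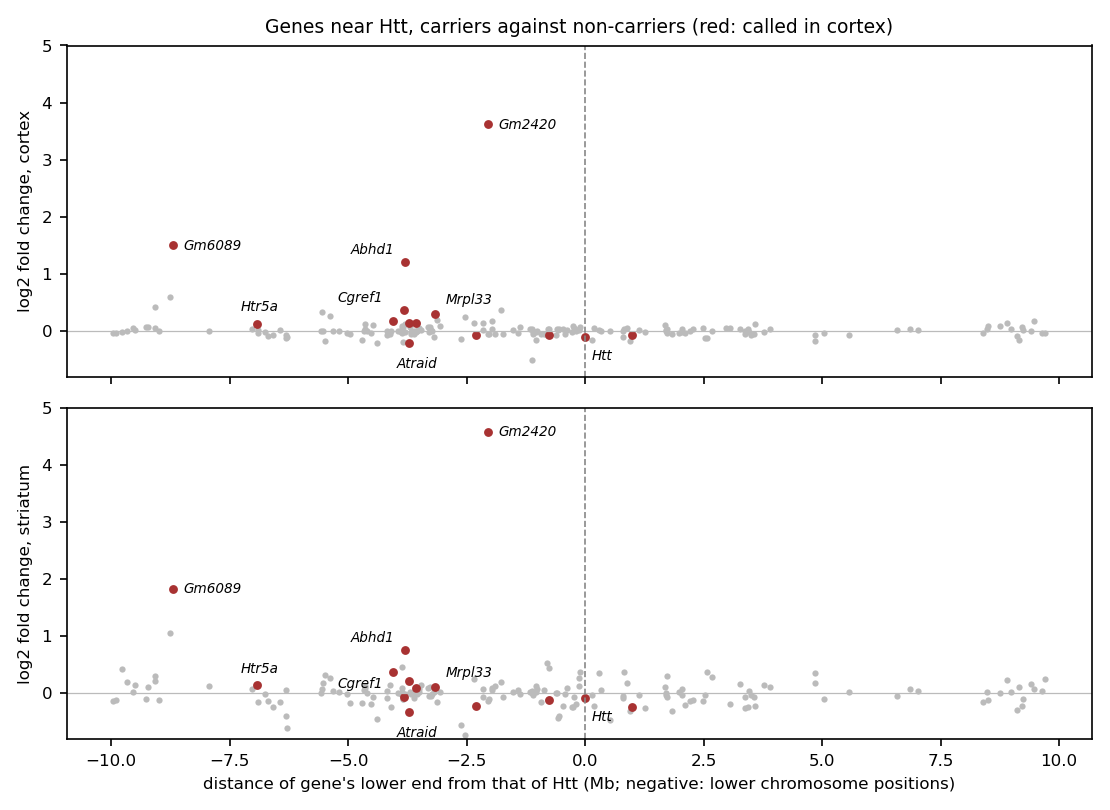
Log2 fold change of carriers against non-carriers (y axes, linear) for the tested genes within 10 Mb of Htt by distance in Mb (x axis, Htt at the dashed line), in cortex above and striatum below, with the 14 genes called in cortex in red. Gm2420, Gm6089 and Abhd1 stand highest of the red points, and 12 of the 14 lie to the left of Htt.

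Pooling the Polq labels was then examined. Taken alone, Q140 against WT gave 63 calls (0.348%), 26 higher (0.144%) and 37 lower (0.204%). Q140 Polq+/- against Polq+/-, which shares no library with it, gave 61 (0.337%), 22 higher (0.121%) and 39 lower (0.215%), and 21 genes were called in both. Of the 463 pooled calls 368 were called in neither alone. The median size of the 463 was 0.12 on the log2 scale in each, a description, since both entered the pooled test. For Abhd1 the log2 fold changes were 1.28 and 1.13 (Q140 against WT first), for Enpp6 0.76 and 0.60, for Camk2n1 -0.29 and -0.23 and for Lingo1 -0.22 and -0.27. The interaction of carrier and Polq label was called in 0 genes by edgeR (863 at an unadjusted p under 0.05; lowest adjusted p = 0.99) and in 0 by DESeq2 and by limma voom.

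The effect was likewise examined by sex. In females 51 genes were called and in males 186. A difference between the sexes was called in 0 genes by edgeR (1073 at an unadjusted p under 0.05; lowest adjusted p = 0.0973), in 0 by limma voom and in 1 by DESeq2. Camk2n1 was at -0.27 in females and -0.26 in males, Nptx2 at -0.31 in females and -0.52 in males and Cartpt at -0.70 in females and -0.35 in males.

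In striatum of the same mice 8188 of 18270 tested genes were called (44.8%), 23.6% of those tested higher and 21.3% lower. Of the 463 cortical calls 451 were tested there, and 288 were called in the same direction, 62.2% of the cortical and 3.52% of the striatal calls. The change was larger in striatum for 286. A difference between tissues, tested over the 64 libraries with each mouse as a block, was called for 250 of the 463, against 32.2% of 19091 genes. Camk2n1 was at -0.45 in striatum and Camkk2 at -0.37 on the log2 scale, each further below 0 than in cortex with the tissue difference called (adjusted p = 0.000179 and 5.53e-08). Homer1 (-0.85) and Rgs4 (-0.69) also fell further there (adjusted p for the difference 8.65e-12 and 2.52e-15). Nptx2 was at -0.42 in striatum and -0.41 in cortex, with no difference called (adjusted p = 0.868).

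A smaller set differed between tissues in the other way. For 54 cortical calls the striatum had no call and the tissue difference was called. Lingo1 was one (-0.25 in cortex and -0.03 in striatum, adjusted p for the difference 3.76e-06) and Cgref1 another (0.36 and -0.06, adjusted p = 8.49e-09). Opposite calls were made for 37 genes, each with the tissue difference called, which opposite calls in the same libraries make almost certain. Among them Syt10 was at 0.52 in cortex and -0.56 in striatum. Lamp5 (-0.21 and 0.18), Rph3a (-0.11 and 0.19), Pak1, a kinase of the actin skeleton (-0.10 and 0.22), and Ipcef1 (-0.13 and 1.17) fell in cortex and rose in striatum. In striatum 13 of 14 tested microglial markers fell, against 21.3% of all genes tested there, and the tissue difference was called for 12 of them. Modifiers of CAG expansion rose in 12 of 19 in striatum, against 23.6% of genes tested there called higher. The tissue difference was called for 7 of the 19, near the 32.2% of all genes.

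**Figure D4:**
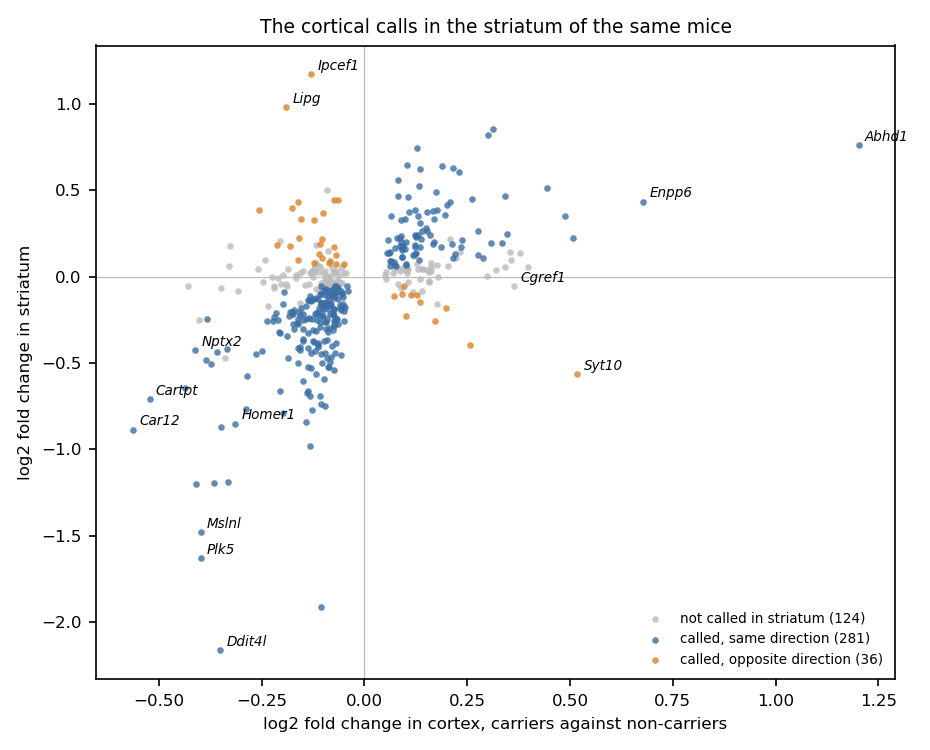
Log2 fold change of carriers against non-carriers in cortex (x axis) and striatum (y axis) for the 441 cortical calls with a mean of at least 1 CPM that were tested in both tissues. Blue points (281) were called in striatum in the same direction, orange points (36, such as Syt10 and Ipcef1) in the opposite direction, and grey points (124) were not called.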

How the data were processed

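Stranded TruSeq libraries followed RNeasy extraction, per the labels' protocols, whose text on dissection names striatum only. The submitters' processing notes name STAR 2.7.5c, SAMtools 1.10, HTSeq 0.12.3 and the GRCm38 (mm10) build. The authors deposited raw gene counts (48795 genes) and FPKM values, and each deposited FPKM was the count divided by length and total (relative spread at most 6.94e-09 over 15456 genes). Groups came from the labels. The 32 cortex libraries (30.9 to 40.1 M counts) were fitted with edgeR 4.0.16 in R 4.3.3: TMM scaling, filterByExpr with its minimum count of 10, and a robust quasi-likelihood fit with carrier, Polq label and sex as terms. Benjamini-Hochberg adjustment ran over every gene tested, with calls under 0.05. The SE was the log2 fold change over the square root of the F statistic. No 2 libraries agreed within sampling noise, and 32 of 32 matched the labelled sex. The labels give same-numbered mice no shared source, so replicate numbers were not a term of the main fit.

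Named genes were Polq and Htt; among calls of at least 1 CPM on average with an assigned name, the 12 largest rises, 12 largest falls and 10 smallest p-values; and up to 4 members of each list by smallest p. Further list members, neighbours of Htt and genes that differ between tissues were chosen after their values were seen. The comparison, members and gene lists were chosen with earlier results of these data known. Alternatives were DESeq2 1.42.0 and its size factors, limma 3.58.1 (voom, and trend on FPKM with pseudocounts of 0.1 and 1), no low-count filter, other covariates, mouse-name prefix as a random block, a looser threshold of 0.1, and leaving out libraries. The fits were tested on simulated data. Some genes that the rule or the lists would name are not reported here, and they remain in the counts.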

Additional observations from a re-analysis of the deposited data

Results flagged for a closer look

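Among the named genes, single libraries lay far from the other 7 of their genotype by a criterion that chance meets in about 1 of 20 groups. Polq+/- female 4 was high in Abhd1 (6.10 CPM, the others 2.22 to 2.91), Shmt1 (1.33 CPM, the others 1.01 to 1.15) and Mslnl (3.02 CPM, the others 1.14 to 1.72). Q140 Polq+/- male 1 was high in Nptx2 (57.6 CPM, the others 30.6 to 41.3), Car12 (5.60 CPM, the others 2.52 to 3.91), Fndc9 (1.60 CPM, the others 0.651 to 1.01) and Plekhg4 (3.53 CPM, the others 1.73 to 2.27), 4 genes that fell in carriers. Q140 Polq+/- female 4 was high in Syt10 (2.31 CPM, the others 1.29 to 1.76), Q140 female 3 in Acer2 (15.4 CPM, the others 8.33 to 10.6) and WT female 2 in Plk5 (39.1 CPM, the others 23.1 to 28.4). Polq+/- male 3, one of the 4 mice of lowest Polq, was low in Polq (0.602 CPM, the others 1.20 to 1.38).

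For 16 named genes the Q140 effect differed between tissues by edgeR, given here as striatum minus cortex on the log2 scale. The cortical rise was larger than the striatal value for Abhd1 (-0.46, adjusted p = 1.34e-06), Enpp6 (-0.25, adjusted p = 0.025), Anln (-0.29, adjusted p = 0.00268), Adamtsl1 (-0.24, adjusted p = 0.0204), Hfm1 (-0.27, adjusted p = 0.0284), Acer2 (-0.29, adjusted p = 0.000118) and Mrpl33 (-0.18, adjusted p = 0.00348). For Cgref1 (-0.43, adjusted p = 8.49e-09) and Syt10 (-1.08, adjusted p = 3.59e-08) the striatal value was below 0. The fall was larger in striatum for Car12 (-0.33, adjusted p = 0.00951), Plekhg4 (-0.80, adjusted p = 1.25e-09), Mslnl (-1.11, adjusted p = 0.000105), Plk5 (-1.24, adjusted p = 1.26e-16), Camk2n1 (-0.19, adjusted p = 0.000179) and Camkk2 (-0.23, adjusted p = 5.53e-08). That of Lingo1 (0.21, adjusted p = 3.76e-06) was larger in cortex.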

How the results depend on the processing

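The main count of 463 calls (162 higher, 301 lower) became 268 (91, 177) with the plate column, 273 (91, 182) without the 4 mice of lowest Polq and 779 (309, 470) at an adjusted p under 0.1. On FPKM limma gave 318 higher and 189 lower with a pseudocount of 0.1, and 324 and 191 with a pseudocount of 1. The fit of all 64 libraries gave 187 lower. Without the low-count filter 348 genes of 32429 were called. DESeq2 called 640 (223 higher, 417 lower) and limma voom 463 (154, 309). Leaving out each library in turn gave 333 to 605 calls, 107 to 215 higher and 226 to 390 lower, with the lowest counts without Q140 male 1 and the highest without Q140 Polq+/- male 1. Of the 463, 298 kept their call in all 32 such fits, 220 with the plate column, and 437 had the same sign within plate columns 5, 6 and 7. The sex difference was called in 1 gene by DESeq2. Polq, not called, went from -0.09 to 0.0246 with the plate column and 0.0395 without those 4 mice. A replicate block gave 452 calls, where the labels give same-numbered mice no shared source. The median correlation of deviations was 0.027 over 48 same-number pairs (11 over 0.1) and -0.011 over pairs of other numbers. Of 32 libraries, 15 correlated best with their own number, and why was not tested. Of 89 named or list genes called, 71 kept the call in every fit without 1 library, and 34 lost it with the plate column. The causes of these shifts were not tested. The 16 mice per group limit the size of change that can be called in genes of low count.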

Other observations

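Some genes fell outside the naming rule by their low level and were chosen here after their values were seen. Tmc3, a channel-like membrane protein gene on chromosome 7, was called higher in cortex (log2 fold change 1.17, SE 0.161, adjusted p = 1.13e-05). It lay at 0.593 to 1.20 CPM in carriers and 0.212 to 0.823 CPM in non-carriers, with 16 of 16 carriers above the non-carrier median, and its log2 fold change in striatum was 1.53. The antibody constant region genes Igha (SE 0.53, adjusted p = 0.0449) and Igkc (SE 0.381, adjusted p = 0.0485) were called higher, at means of 0.338 and 0.263 CPM in carriers and 0.084 and 0.0988 CPM in non-carriers. Some libraries of each group were at 0 in both genes, and the groups overlapped.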
